A study of Mus musculus with 23 samples.

Results

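D2 and B6 control cortex was compared by MBD-seq, in which the MBD2 protein captures DNA fragments through their methylated CpGs before sequencing, so that the number of reads over a stretch of genome rises with its methylation. The comparison used 11 of the 23 mice of the study, namely the 6 DBA/2J (D2) and 5 C57BL/6J (B6) control mice, and covered all 210191 windows of 150 bp that the deposited table holds. The tissue was dissected prefrontal cortex, a mixture of neurons, glia, and vascular cells, and no cell type was sorted. The control mice of both strains drank no corticosterone and were injected with saline. The other 12 mice, 6 of each strain, were the CORT + DFP mice, given corticosterone at 20 mg% in the drinking water for 7 days and then the sarin surrogate diisopropyl fluorophosphate (DFP) at 4 mg per kg, followed by corticosterone in alternate weeks until the tissue was taken. They are separate animals in which the strain comparison was repeated. The B6 control mice (2 females and 3 males) were 145 days old and all came from set 2, where a set is the mice whose sample names share their first part. The D2 control mice (3 females and 3 males) came from set 1 (196 days old) and set 3 (147 days old). No set held control mice of both strains, so strain and set cannot be told apart in the control mice alone. The CORT + DFP mice, 3 females and 3 males of each strain, came from the same sets. Of the B6 mice, 3 were in set 1 (218 or 226 days old) and 3 in set 2 (145 days old). Of the D2 mice, 2 were in set 1 (196 days old) and 4 in set 3 (147 days old). Strain and set are thus partly confounded in them too, and in set 1 the B6 mice were older than the D2 mice.

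B6 and D2 are inbred strains that have been bred apart for many generations and differ at many positions of the genome, and they are the parents of the BXD family used to map traits. CpG methylation in the adult brain is high over repeats, gene bodies, and intergenic DNA, and is low over most active promoters. Neurons also carry methylation outside CpGs, which MBD2 capture is not designed to read. Sequence differences between strains can remove or create CpGs, change the number of copies of a segment, or move a sequence away from the reference, and each of these also changes the reads in a window. The reference, GRCm38, is a B6 genome. Methylation, copy number, and the fit of D2 reads to the B6 reference cannot be told apart in these values, and every difference below is a difference in captured and aligned reads.

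Values are log2 RPKM (log2 of the reads per kilobase of window, scaled to the size of the library). The control mice had between 9776537 and 18074278 reads in the windows, with a median of 41 reads per window and mouse. The median SD between mice of a strain was 0.219 in B6 and 0.249 in D2. Each window was tested for strain with sex in the model (limma), and a window was called at a Benjamini-Hochberg adjusted p under 0.05 over all windows. The labels give each mouse as a separate animal.

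Captured reads differed between D2 and B6 control cortex in a large share of the windows tested. Of the 210191 windows, 55939 were called (26.6%). D2 was higher in 23276 (11.1% of all windows) and lower in 32663 (15.5%). The differences to lower levels were also larger. The median difference was 0.59 for the higher and -1.17 for the lower windows on the log2 scale, beside a median absolute difference of 0.19 over all windows. A difference of 2 or more on the log2 scale was seen in 9458 windows that were lower in D2 (29.0% of the lower calls) and in 618 that were higher (2.66% of the higher calls). At 4 or more there were 2324 lower windows and 47 higher windows. The levels of all D2 control mice lay below those of all B6 control mice in 26310 windows (12.5% of all windows), and above them in 12352 (5.88%).

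**Figure D1:**
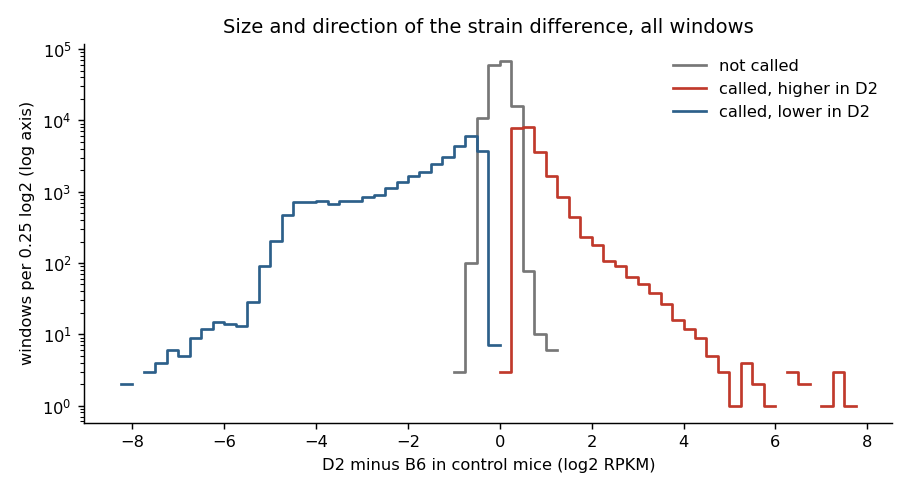
Number of windows (y axis, log scale) by the difference between D2 and B6 control mice in log2 RPKM (x axis, steps of 0.25), for windows called higher in D2 (red), called lower in D2 (blue), and not called (grey). The blue line stays high down to about -5, with 2324 windows at -4 or below, while the red line falls steeply, with 47 windows at 4 or above.

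Some windows had no reads at all in D2. There were 755 windows with no read in any of the 6 D2 control mice, and 0 windows with no read in any of the 5 B6 control mice. In the B6 control mice these 755 windows had a mean of 20.4 to 344 reads (median 43.6), and 447 of them had no read in any D2 CORT + DFP mouse either. The authors retained only windows with enough reads in some of the libraries. The 447 windows could pass that filter only through B6 mice, and none of the 755 through a D2 control mouse. The lower limit of the B6 reads is therefore set in part by the filter. A mean of 3 reads or fewer in D2 with more than 3 in B6 was found in 4224 windows, and the reverse in 87. The number of windows without reads per mouse was 1884 to 2606 in D2 and 6 to 204 in B6 control mice.

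The strain difference was also measured in the CORT + DFP mice, which share no animal with the control mice. In these 12 mice 55229 windows were called (26.3%), 22705 higher and 32524 lower in D2. Of the control calls, 46149 (82.5%) were called in the same direction in the CORT + DFP mice, which is 83.6% of the calls in those mice, and 3 were called in the opposite direction. The share was 72.6% for windows higher in D2 and 89.5% for windows lower in D2. No window had a different strain effect in control and CORT + DFP mice at an adjusted p under 0.05 in limma, with 8182 windows (3.89%) at an unadjusted p under 0.05.

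The only comparison of strains within a set was in CORT + DFP mice of set 1, with 2 D2 mice (196 days) and 3 B6 mice (218 or 226 days). It called 40126 windows (19.1%), 12648 higher and 27478 lower in D2. Of the control calls, 42.5% of the higher and 74.5% of the lower windows were called in the same direction there, 94.3% and 97.7% had the same sign, and 9 were called in the opposite direction. The median differences of the control calls were similar in it, 0.53 for the higher and -1.18 for the lower windows. Between the 3 D2 control mice of set 1 and the 3 of set 3, limma called 0 windows (smallest adjusted p = 0.274), with 18103 windows (8.61%) at an unadjusted p under 0.05.

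The largest increases at well-covered windows lay in and near a mixed set of genes. Among called windows whose groups did not overlap and that had a mean of 10 reads or more in each strain, 11623 were higher and 17212 lower in D2, and the 8 with the largest difference in each direction were named, at most 1 per gene and per 100000 bp. The largest increase was at chr9:123927901-123928050, 34074 bp from Ccr1, which encodes a chemokine receptor of myeloid cells. There the B6 mice had 3.12, 2.97, 2.02, 2.94, and 3.20 log2 RPKM, and the D2 mice ranged from 6.78 to 7.75. The groups lay far apart, with 6 to 17 reads in B6 and 263 to 414 in D2 mice, for a difference of 4.44 ± 0.177 (SE, limma adjusted p = 3.38e-19). This window holds 1 CpG.

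The next was an intergenic window with 6 CpGs at chr6:114561001-114561150, 77705 bp from Hrh1, which encodes the histamine H1 receptor. It had 5.43, 4.40, 4.39, 4.73, and 4.59 in B6, and 8.69 to 8.92 in D2 mice, a difference of 4.12 ± 0.121 (SE, limma adjusted p = 8.95e-22). An intron of Drosha, the nuclease that starts the processing of microRNAs, had a window at chr15:12873151-12873300 with 7 to 22 reads in B6 and 181 to 326 in D2 mice (difference 4.04 ± 0.194, SE). By the rule of choice, the D2 mice lay above the B6 mice in each of these.

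The other 5 were 3.23 to 3.49 higher in D2. They lay in introns of Snhg14, a long RNA of the imprinted region that includes Ube3a, of Atp6v1h, a subunit of the vacuolar proton pump, and of Gm20388 on chromosome 8, near the start of Gm13275 on chromosome 4, and in an intergenic stretch of chromosome 13. Along Atp6v1h as a whole the calls were split, with 12 of 25 windows higher and 11 lower in D2 (median -0.03). All 8 named windows were called in the CORT + DFP mice, with differences of 3.18 to 4.53.

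The largest decrease among such windows came from a stretch with very high levels in B6. At chr4:118547851-118548000, 3807 bp from Tmem125, the B6 mice had 11.46, 11.35, 11.45, 11.28, and 11.30 log2 RPKM, and the D2 mice had 6.00 to 6.77. The counts were 3995 to 6322 reads in B6 and 157 to 227 in D2 mice, and the difference was -4.90 ± 0.107 (SE, limma adjusted p = 1.73e-24). Reads in both strains and groups that did not overlap were conditions for naming a window.

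A window with 13 CpGs at the start of Tmem267, which encodes a transmembrane protein, had 6.81, 6.43, 7.11, 6.82, and 7.11 in B6 (chr13:119488801-119488950). The D2 mice had 1.17 to 3.30, with 2 to 21 reads, and the difference was -4.51 ± 0.231 (SE, limma adjusted p = 9e-17). The whole gene followed, with 66 of the 70 windows of Tmem267 called lower and 1 called higher in D2.

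In an intron of Mid1, a ubiquitin ligase gene of the X chromosome that crosses the boundary of the pseudoautosomal region in B6 mice, the window at chrX:169997851-169998000 had 7.09, 6.45, 7.16, 8.07, and 6.79 in B6, and 1.43 to 3.54 in D2 mice. The neighbouring window, chrX:169997701-169997850, was among the 3 with the highest B6 level and no read in D2. It had 195 to 628 reads per B6 mouse. Along Mid1, 113 of 136 windows were called lower and 12 higher in D2, and B6 replicate 4, a male, was the highest B6 mouse at both windows.

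The highest B6 level with no read in D2 was at chr10:3114451-3114600, with 306 to 398 reads per B6 mouse. Counting 3 reads over the 6 D2 mice as the floor, this window was at least 709-fold lower in D2, the Mid1 window at least 620-fold lower, and a window at chr4:122023051-122023200 at least 248-fold lower. The other named decreases, with differences of -4.50 to -3.36, lay between genes on chromosomes 6, 8, 14, 17, and 18. All 8 of the largest decreases were called in the CORT + DFP mice, with differences of -5.13 to -3.10.

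Windows near the start of coding genes were called less than most. Of 7601 windows within 1000 bp of a protein-coding start, 355 were called higher (4.67%) and 648 lower in D2 (8.53%). The shares over all windows were 11.1% and 15.5%. Among the largest increases, the start of Fcgr3, which encodes a receptor for immunoglobulin G on microglia and other myeloid cells, had 3.91, 2.40, 2.19, 1.56, and 2.57 in B6 and 5.49 to 5.70 in D2 mice (difference 2.99 ± 0.226, SE, limma adjusted p = 1.32e-12). The B6 mice had only 5 to 20 reads there and the D2 mice 65 to 142. The wider spread of the B6 mice thus rests on low counts and was not compared between the strains. Groups that did not overlap were a condition for naming the window. Increases were also called at the start of Gm13275 (3.39), Ftl1-ps1 (2.58), Gm45844 (2.30), 4930449I24Rik (2.14), and Sfn (1.87), the last of which encodes the 14-3-3 sigma protein.

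Decreases near starts were called at Tmem267 and at Sfi1, which encodes a centrosome protein and whose window also lies in Drg1. Sfi1 had 8.36, 7.57, 7.77, 7.83, and 7.99 in B6 and 4.06 to 5.33 in D2 mice (difference -3.20 ± 0.154, SE, limma adjusted p = 2.01e-17). Further decreases were called at Gm21887 (-2.86), at Flg, which encodes filaggrin of the skin barrier (-2.20), at Gm11127 (-2.13), and at Zfp978 (-2.10). The 12 differences near starts were called in the same direction in the CORT + DFP mice, between 1.78 and 3.5 for the increases and between -4.64 and -1.91 for the decreases.

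Promoter sequences are shown for the starts where a window covered at least 100 of the 250 bases before a RefSeq start, for the 2 with the largest difference in each direction, since these are the places where the measured DNA and a promoter coincide. Of 694 such windows, 47 were called higher (6.77%) and 92 lower in D2 (13.3%). This is 20.0% in all, below the 26.6% over all windows. The sequences are those of the reference (RefSeq, GRCm38.p6), which is B6, and the D2 sequence was not analysed here. Capitals mark the CpGs, the sites that MBD2 binds when methylated.
Gm31714: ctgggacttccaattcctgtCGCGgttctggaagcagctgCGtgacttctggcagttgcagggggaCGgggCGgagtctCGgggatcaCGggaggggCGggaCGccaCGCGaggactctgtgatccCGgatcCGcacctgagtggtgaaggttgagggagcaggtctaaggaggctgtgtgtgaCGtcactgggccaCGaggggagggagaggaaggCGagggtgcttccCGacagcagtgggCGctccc
Vmn2r29: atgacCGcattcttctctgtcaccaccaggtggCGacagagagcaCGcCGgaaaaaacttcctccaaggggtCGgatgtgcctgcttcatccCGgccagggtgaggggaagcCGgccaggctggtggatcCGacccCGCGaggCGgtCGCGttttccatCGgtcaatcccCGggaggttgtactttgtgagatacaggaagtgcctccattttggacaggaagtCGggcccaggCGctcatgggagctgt
Gm40237: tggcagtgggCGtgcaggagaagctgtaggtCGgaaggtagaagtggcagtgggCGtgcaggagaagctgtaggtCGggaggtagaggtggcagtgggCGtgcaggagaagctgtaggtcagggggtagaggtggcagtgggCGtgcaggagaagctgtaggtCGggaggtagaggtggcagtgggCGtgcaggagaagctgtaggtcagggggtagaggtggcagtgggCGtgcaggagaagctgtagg
Gm33022: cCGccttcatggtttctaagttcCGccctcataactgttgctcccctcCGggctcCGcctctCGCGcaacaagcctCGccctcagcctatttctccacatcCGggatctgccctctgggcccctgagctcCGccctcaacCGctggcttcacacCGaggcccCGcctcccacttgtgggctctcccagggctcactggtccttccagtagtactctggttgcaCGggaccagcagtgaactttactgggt

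The Gm31714 promoter (chr13:65420366-65420615, minus strand) holds 18 CpGs. Its window was at 3.0, 2.71, 3.49, 3.27, and 2.69 in B6, and 4.83 to 5.28 in D2 mice, a difference of 2.12 (± 0.161, SE, limma adjusted p = 1.45e-12). The Vmn2r29 promoter (chr7:7278290-7278539, minus strand), of a vomeronasal receptor gene, holds 17 CpGs and is next to the Gm45844 window above. It had 8 to 19 reads in B6 and 42 to 83 in D2 mice, a difference of 1.99 (± 0.155, SE, limma adjusted p = 2.5e-12). At both promoters, rich in CpGs, every D2 mouse was above every B6 mouse, which the choice by largest difference makes likely.

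The Gm40237 promoter (chr4:118547156-118547405, plus strand) lies beside the window with the largest decrease, and is built of a short repeated unit, with 97.5% of its bases the same as the base 88 positions further on. The window there had 10.4, 10.2, 10.3, 10.1, and 10.1 in B6, and 7.31 to 8.01 in D2 mice, a difference of -2.54 ± 0.111 (SE, limma adjusted p = 2.02e-18). The Gm33022 promoter (chr14:19311690-19311939, minus strand) holds 13 CpGs, and its window had 35 to 75 reads in B6 and 7 to 23 in D2 mice (difference -2.25 ± 0.217, SE, limma adjusted p = 3.41e-10). At both, every D2 mouse was below every B6 mouse, which the same choice makes likely. All 4 promoter windows were called in the same direction in the CORT + DFP mice. The differences there were 2.38, 2.15, -2.49, and -2.22 in the order shown.

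Called windows often came in tracts. A tract here is a run of at least 3 windows called in the same direction, with starts no more than 1000 bp apart and no uncalled window between them. There were 3443 tracts higher in D2 and 4259 lower in D2, and they held 63.5% of the higher and 62.3% of the lower calls. The median tract had 3 windows when higher and 4 when lower, and 125 higher and 256 lower tracts had 10 windows or more. Windows called alone made up 14.0% of the higher and 14.8% of the lower calls. Neighbouring windows are not independent, and the shares in tracts were not set against runs among all windows. They are a description with no test.

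The tract with the most windows was lower in D2, with 57 windows over 8700 bp at chr4:147218851-147227550, in the non-coding genes C230088H06Rik and Gm26624, within a cluster of zinc finger genes. The B6 mice had tract means of 5.58, 5.47, 5.52, 5.58, and 5.59, and the D2 mice 2.81 to 3.04. The SDs of 0.051 and 0.084 were small beside the difference of -2.62. In the CORT + DFP mice the difference was -2.68, and all 57 windows were called again (exact permutation test of the tract mean, two-sided, p = 0.00216, the smallest that 6 against 6 mice can give).

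On chromosome 10, 43 windows at chr10:3109351-3117150, around the window without D2 reads described above, had a mean of 409 reads per window in B6 and 2.36 in D2 mice. B6 replicate 1 had the highest mean at 8.23, and the other B6 mice had 7.06 to 7.44. On chromosome 1, 42 windows over 7050 bp, 16748 bp from F11r, which encodes a tight junction protein, had a mean of 51.8 reads in B6 and 1.94 in D2 mice (chr1:171481351-171488400). The D2 mice were close to the floor along both. The other 2 of the 5 lower tracts with the most windows retained more reads in D2, with 52 windows in Gm49692 on chromosome 12 (6.29 in B6 and 5.47 in D2 mice) and 47 windows on chromosome 6, 39891 bp from Pdia4 (6.27 and 4.23).

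The higher tract with the most windows was intergenic on the X chromosome, with 43 windows over 7650 bp at chrX:113964901-113972550, 128515 bp from Dach2. B6 females had means of 4.36 and 4.01, and B6 males 3.09, 3.32, and 3.35. D2 females had 5.28, 5.03, and 5.03, and D2 males 4.81, 4.87, and 4.76. Both sexes of D2 were thus above both sexes of B6, and in each strain the lowest female was above the male with the most. The difference was 1.34 in the control and 1.18 in the CORT + DFP mice.

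Of the other 4 long higher tracts, 3 lay in Gm20388 on chromosome 8, in a cluster of copies of the gene for 5S ribosomal RNA, a repeated gene that gives an RNA of the large ribosomal subunit. The longest of these had 38 windows at chr8:123539251-123548250, with 4.12, 3.24, 3.49, 3.39, and 3.51 in B6, and 5.02 to 5.52 in D2 mice. B6 replicate 1, the mouse with the fewest reads, was the highest B6 mouse in all 3, and still lay below every D2 mouse. The differences of the 3 tracts were 1.79, 1.73, and 1.77 in the control and 1.88, 1.71, and 1.87 in the CORT + DFP mice. A run of 28 windows on chromosome 18, 4697 bp from Rprd1a, was 0.69 higher in D2, with SDs of 0.074 in B6 and 0.11 in D2 mice. In repeated genes, how reads were shared between near-identical copies is uncertain.

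**Figure D2:**
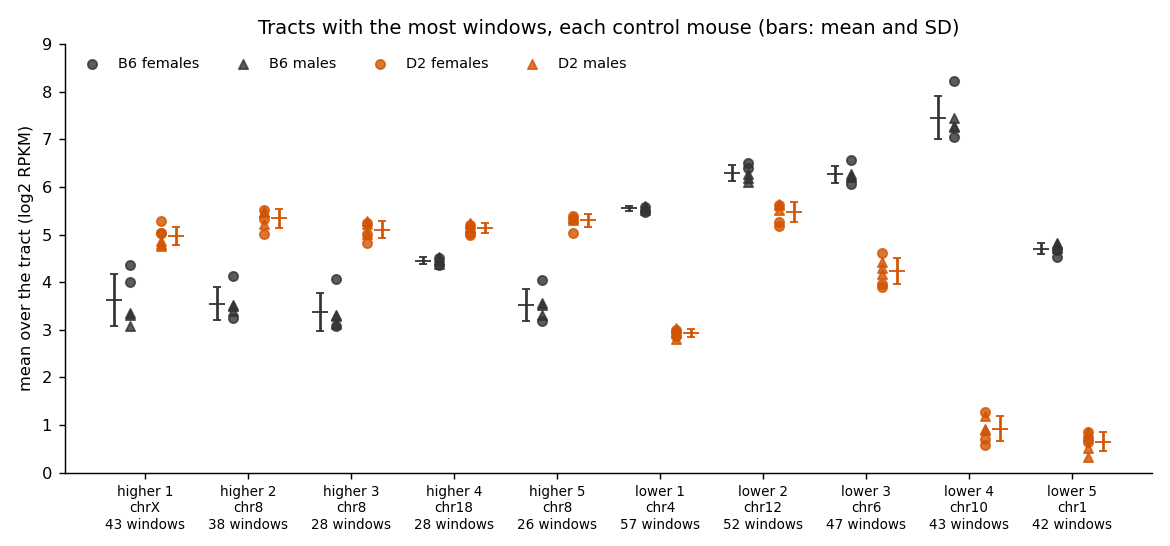
Mean log2 RPKM over each of the 5 higher and 5 lower tracts with the most windows (y axis), for each B6 (dark) and D2 (orange) control mouse, with circles for females, triangles for males, and bars for the mean and SD of the group. The tracts are built of called windows, and the strains do not overlap in any of them. In the tracts on chr10 and chr1 the D2 mice lie near 1 or below, against 7.45 and 4.71 for the B6 means.

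The difference also ran along whole segments. In blocks of 1000000 bp with at least 20 windows (2507 blocks), the median share of called windows was 23.1% (quartiles 12.7% and 36.2%). In 287 blocks (11.4%) more than 50% of windows were called, and these blocks held 32.5% of all called windows. Lower calls were the majority in 262 of them and higher calls in 25. At the other end, 203 blocks (8.1%) had under 5% of windows called, and 43 had none, the largest of which held 114 windows.

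The block with every window called and the most windows covered the Skint genes on chromosome 4, a family that shapes gamma delta T cells in the skin. All 37 windows at chr4:112000001-113000000 were lower in D2, with block means of 4.15 to 4.49 in B6 and 0.54 to 0.73 in D2 mice, and so were all 29 windows of the next block. On chromosome 12, 69 of 70 windows at chr12:115000001-116000000, in the region of the immunoglobulin heavy chain, were lower in D2. On chromosome 7, 326 of 339 windows at chr7:22000001-23000000, which include the vomeronasal receptor gene Vmn1r139, were lower, with block means of 4.83 to 4.95 in B6 and 1.54 to 1.71 in D2 mice, and 5 were higher.

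Among the 12 blocks with the highest share was also a block within a neuronal gene. In Erbb4, which encodes a neuregulin receptor of interneurons, 23 of 26 windows were lower in D2 and none was higher. Their means were 4.13 to 4.55 in B6 and 2.12 to 2.37 in D2 mice, and the same number was called lower in the CORT + DFP mice. The median over the gene was -2.47 in control mice, -2.52 in CORT + DFP mice, and -2.59 within set 1.

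Among coding genes with 10 or more windows (2555 genes), 1044 (40.9%) had no called window and the median gene had 7.69% of its windows called. In 68 genes at least 80% of windows were called, a list that was drawn up after the values were seen. Lower calls were the majority in 51 of these genes and higher calls in 17. The genes described here are examples that were not chosen by rank. With every window called, the list also held Tcp10c (30 of 30 lower, median -1.69), Ddx39b (11 of 11 higher, median 1.31), and Eno1b (10 of 10 higher). The genes lower in D2 included Mctp1, which encodes a calcium-binding membrane protein of synapses (37 of 45 windows lower, median -1.64). Trpm3, a heat-gated ion channel gene, had 24 of 28 windows lower (median -1.02), and Gabrr3, a GABA receptor subunit gene, had 9 of 10 (median -3.87). Galk2, a sugar kinase gene, had 11 of 11 (median -4.03), with gene means of 4.55 to 4.81 in B6 and 0.66 to 1.13 in D2 mice. Rb1, the retinoblastoma tumour suppressor gene, had 14 of 17 (median -0.86).

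A long stretch of higher levels lay on chromosome 17, over Glo1, Dnah8, and Glp1r. Glo1 encodes glyoxalase, which removes methylglyoxal, and is known to lie in a segment that is duplicated in D2 and several other inbred strains and not in B6. Dnah8 encodes a dynein of sperm tails, and Glp1r the receptor for the hormone GLP-1. From 30450001 to 30950000 on chromosome 17, 287 of 298 windows were higher in D2 (96.3%) and 1 was lower. The borders were set at steps of 50000 bp where the calls begin and end, after the values were seen. This share and the contrast with the steps outside thus follow in part from the choice. The median difference was 0.89 (quartiles 0.74 and 1.02), which is 1.85-fold. The mean over the stretch was 3.67 to 3.9 in B6 and 4.46 to 4.83 in D2 mice, so that the groups did not overlap.

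By gene, 21 of 21 windows were called higher in Glo1, 225 of 229 in Dnah8, and 22 of 27 in Glp1r. In the CORT + DFP mice 288 of the 298 windows were higher (median 0.94), and the median within set 1 was 1.05. Part of Btbd9 lies on either side of the proximal border, and its windows in the step of 50000 bp that starts at 30350001 had a median of -0.34, against 0.95 in the step that starts at 30450001. Beyond the distal border, the step that starts at 30950001, with Umodl1, had a median of -0.06.

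**Figure D3:**
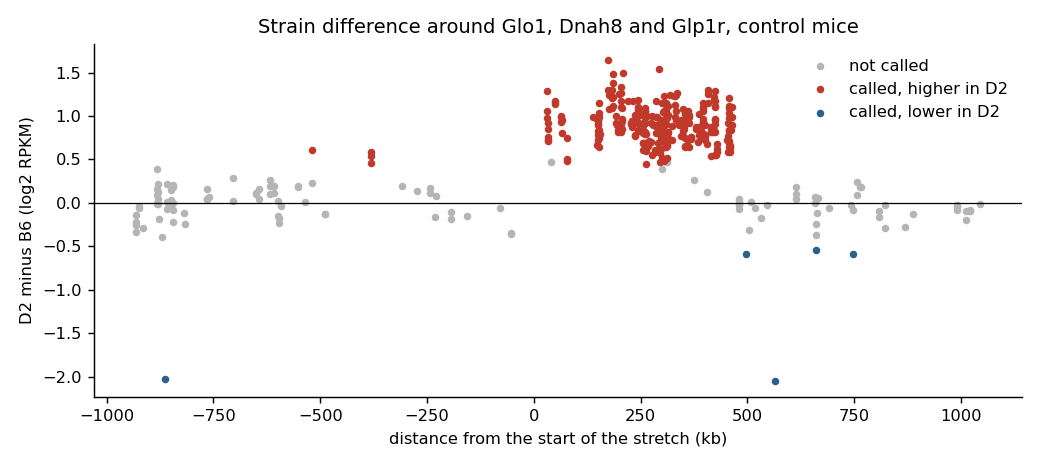
Difference between D2 and B6 control mice in log2 RPKM (y axis) for each window around the stretch with Glo1, Dnah8, and Glp1r, by distance from its start (x axis, kb). Within the stretch 287 of 298 windows were called higher (red) around a median of 0.89, and the windows on either side lie mostly near 0 (grey). The borders of the stretch were set after these values were seen.

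A smaller segment of higher levels held Alad, which encodes an enzyme of heme synthesis and is known for an extra copy in D2. All 36 windows at chr4:62498551-62522100, over Alad and its neighbour Hdhd3, were higher in D2, by a median of 1.53 (2.9-fold). The limits of this segment were drawn around called windows after the values were seen. That all 36 were called in the control mice thus follows from the choice. The means were 3.31 to 3.9 in B6 and 4.86 to 5.34 in D2 mice. All 36 were called in the CORT + DFP mice (median 1.5), and the median within set 1 was 1.67. Of genes around it, Wdr31 had 11 of 20 windows higher, and 7 of 17 windows in Rgs3 at 62570001 to 62580000 were lower.

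Of 15 genes listed for variants between the strains, which were not checked here, 10 had windows. Of their 150 windows, 43 were higher and 5 lower in D2 (32.0%, beside 26.6% over all windows), and 75 were in Cdh23. The higher calls were all in Glo1 (22, with those within 1000 bp of its start) and Alad (21). Mpdz, a scaffold gene linked to alcohol withdrawal, had 3 of 6 windows lower, the strongest with a difference of -2.12 ± 0.199 (SE). Fscn2, a hearing gene, had 2 of 9 windows lower, the strongest with a difference of -0.51 ± 0.148, and the same window had a difference of 0.14 in the CORT + DFP mice (limma adjusted p = 0.601). None of the windows of Cdh23 (75), Gpnmb (6), Hc (4), Ahr (4), Myo5a (2), and Nnt (1) was called.

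Of 128 windows in 10 of 14 genes for the writing, erasing, and reading of DNA methylation, 2 were higher and 5 lower in D2 (5.47%), with a median difference of 0.03. The share was 26.6% over all windows, and 7.69% in the median coding gene with 10 or more windows. Mbd1, a CpG-binding protein gene, had 1 of 12 windows lower (-1.18 ± 0.19, SE, limma adjusted p = 6.8e-06, and -0.70 in the CORT + DFP mice). Tdg, a DNA glycosylase gene that acts in demethylation, had 3 of 6 lower (the strongest -0.81 ± 0.217, and -1.04 in the CORT + DFP mice). Dnmt1, the maintenance methyltransferase gene, had 2 of 55 higher, and Tet3, a dioxygenase gene, 1 of 13 lower. The named windows of Dnmt1 and Tet3 were not called in the CORT + DFP mice (limma adjusted p = 0.83 and 0.298).

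In the genes that mark cell types the share of windows called ran from 0% to 11.8%, beside 26.6% over all windows and 7.69% in the median coding gene. In neuron markers 0 of 21 windows were higher and 1 was lower (median -0.02), in an intron of Syt1, which encodes a calcium sensor of synaptic vesicles, with a difference of -1.51 ± 0.181 (SE) in control and -1.86 in CORT + DFP mice. In astrocyte markers 2 of 17 were lower (median -0.18), both in Aldh1l1, while in the CORT + DFP mice 2 were higher and 0 lower, and the named Aldh1l1 window was not called (limma adjusted p = 0.837). In oligodendrocyte markers 0 of 13 were called. In microglia markers 1 of 56 was higher and 1 lower, both in Cx3cr1, against 2 higher and 0 lower in the CORT + DFP mice, where the named Cx3cr1 window was not called (limma adjusted p = 0.791). In endothelial markers 4 of 71 were higher and 4 lower, all 8 in Tek, against 2 higher and 7 lower in the CORT + DFP mice. No expression was measured in these mice, so the cell types could not be checked by RNA.

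The chromosomes differed in how much they were changed. The share of windows called was highest on chromosome 12 (35.8%) and next highest on chromosome 14 among the nuclear chromosomes, and lowest on chromosome 19 (19.4%) and chromosome 11 (19.6%). Lower calls were the majority on 15 of the 19 autosomes, with the largest majority on chromosome 7, where 76.4% of the calls were lower. Chromosome 8 had the smallest share of lower calls among the autosomes (45.6%). The shares of the CORT + DFP mice followed, with 23.4% lower and 7.78% higher on chromosome 7 beside 24.2% and 7.49% in the control mice.

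The X chromosome was weighted the other way, with 16.1% of its 14416 windows higher and 6.11% lower in D2 control mice. In the CORT + DFP mice these shares were 15.3% and 6.26%. The mean level of the X chromosome relative to the autosomes differed between the strains within each sex. In females it was 0.06 and 0.12 in B6 and 0.23 to 0.32 in D2 mice, and in males -0.64 to -0.63 in B6 and -0.41 to -0.37 in D2 mice. The D2 mice did not overlap the B6 mice of their sex, and the difference within sex was 0.225 (exact permutation test with strain rearranged within sex, two-sided, p = 0.005). In the CORT + DFP mice it was 0.198 (exact permutation test, p = 0.005).

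The size of this difference depended on the measure and on the mice. By the median in place of the mean it was 0.118, and the females overlapped, with 0.05 and 0.14 in B6 and 0.13 to 0.23 in D2 mice. Within set 1 the calls on X in the CORT + DFP mice were nearly even, 6.53% higher and 5.7% lower. The female of each strain in that set had 0.11 in B6 and 0.17 in D2 by the mean and 0.12 and 0.07 by the median, while the D2 male, at -0.47, was above the B6 males, at -0.69 and -0.64.

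In the mitochondrial genome 42 of 98 windows were lower and none was higher in D2 control mice. The number of mitochondrial genomes per cell enters these values. The median level over the 98 windows was 5.22 to 6.73 in B6 and 4.60 to 6.26 in D2 control mice, so that the groups overlapped (difference within sex -0.397, exact permutation test, two-sided, p = 0.29). In the CORT + DFP mice 6.12% of the windows were called lower, and 58.2% in those of set 1 alone.

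**Figure D4:**
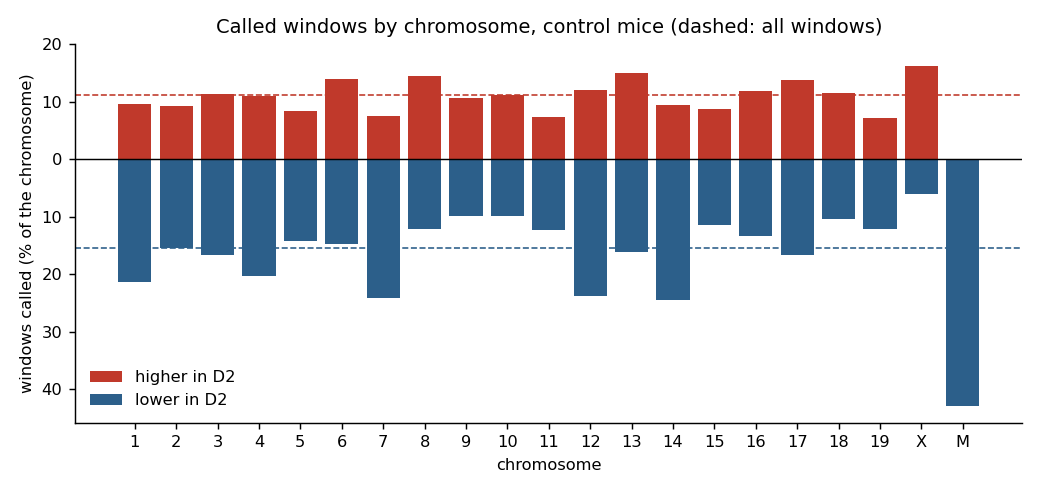
Share of the windows of each chromosome called higher (red, above 0) and lower (blue, below 0) in D2 control mice, in percent, with dashed lines at the shares over all windows (11.1% and 15.5%). The longest blue bar is that of the mitochondrial genome (M), with 42.9% of 98 windows lower. Among the nuclear chromosomes, lower calls reach 24.5% on chromosome 14 and 24.2% on chromosome 7. The X chromosome has more higher (16.1%) than lower (6.11%) calls.

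Of 4 places in the annotation, exons had the lowest share of called windows. Of 39632 windows that touched an exon away from a coding start, 7.98% were called, against 28.9% of 47349 windows in introns and 32.9% of 115609 windows between genes. Windows within 1000 bp of a coding start lay between, at 13.2%. The depth was alike, with a median of 41.7 reads in exons and 42.2 between genes. Large differences were rarer still in exons, where 0.575% of windows were called with 2 or more on the log2 scale, against 6.56% between genes. The shares in CORT + DFP mice were 7.27% in exons and 32.7% between genes, and within set 1 they were 6.61% and 23.3%. Exons had the lowest share in each class of CpG number, from 14.3% in exons and 37.5% between genes at 1 to 2 CpGs, to 10.2% and 39.4% at 9 CpGs or more. Neighbouring windows are not independent, and these shares are a description with no test.

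The direction of the difference went with the number of CpGs in the window. Of windows with 1 CpG, 27.1% were higher and 11.5% lower in D2, while of windows with 16 to 34 CpGs, 7.91% were higher and 31.0% lower. Higher calls were fewest at 6 CpGs (7.43%). The same was seen in the CORT + DFP mice, with 25.2% higher at 1 CpG and 29.9% lower at 16 to 34 CpGs.

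The libraries themselves differed in the same measure. The slope of log2 RPKM on the number of CpGs, which measures how much a library favours windows rich in CpGs, was 0.039 to 0.070 in B6 and -0.002 to 0.048 in D2 control mice (difference within sex -0.035, exact permutation test, two-sided, p = 0.02, and p = 0.113 without B6 replicate 2). With this slope as a term in the model, 45311 windows were called, and the shares at 1 CpG became 13.4% higher and 13.9% lower. At 16 to 34 CpGs they were 8.87% and 25.2%. At 6 CpGs they were 5.53% and 12.8%. The part of the slope in the strain difference was not tested beyond this model. The slope is computed from the same values and moves with strain, so the library and the strain cannot be told apart in this measure.

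**Figure D5:**
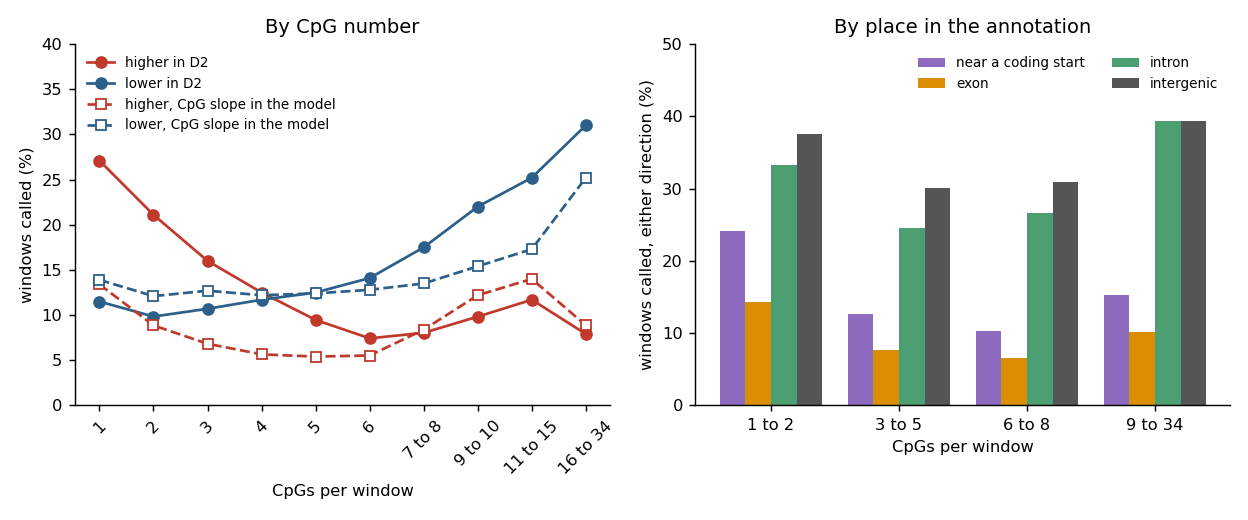
Left, share of windows called higher (red) and lower (blue) in D2 control mice by CpGs per window, with filled points for the model of strain and sex and open squares with the CpG slope of each library added. Right, share called in either direction by CpGs per window, near a coding start, in exons, in introns, and between genes. The filled red points fall from 27.1% at 1 CpG to 7.43% at 6 CpGs, and the exon bars lie at 6.61% to 14.3%, below the other bars of each class.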

How the data were processed

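The authors deposited 1 table of log2 RPKM, with a row for each window and a column for each mouse. Reads were aligned to GRCm38 with STAR 2.5.0a and counted in windows of 150 bp, and windows with CpGs and enough reads were retained and normalized with edgeR 3.34.1. This adds a prior to each count, so a window without reads has a finite value and small counts are drawn together. The prior was solved from the values, and 100% of the values came back as whole reads (tolerance 0.05, mean prior 2 reads), with 9776537 to 18074278 reads per control mouse.

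Windows were fitted with limma 3.58.1 in R 4.3.3 (trend, strain and sex, 11 control mice), with Benjamini-Hochberg adjustment over 210191 windows. CORT + DFP mice and sets were fitted apart. Single values were compared by exact permutation in scipy 1.17.1. The same fit was also run on simulated reads, with 50 windows changed at each size. On the log2 scale it recovered 94% of windows at 1, 8% at 0.5, 14% at -0.5, and 58% at -1. Of 209991 unchanged windows, 1 was called. Far fewer windows were changed there than were called in the data. The spread between the simulated mice was a fixed setting and was not fitted to the data. No effect of set or of CpG slope was simulated, so these rates do not carry over to the real windows. Genes are from GENCODE M21, which uses GRCm38.

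Named were the 8 windows with the largest difference in each direction (called, not overlapping, 10 reads or more in each strain, at most 1 per gene and 100000 bp), the 6 such windows near coding starts, the 3 with the highest B6 level and no D2 reads, the 5 tracts with the most windows, and up to 4 genes of each list. Genes with at least 80% of windows called and promoters for sequence (none on chromosome 18) were chosen after their values were seen. So were the borders of the stretches over Glo1 and over Alad. The comparison and the lists were chosen with earlier results of these data known. Replicate numbers follow the order of the records and pair no mice.

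Alternatives covered covariates, scaling, filters, subsets of mice, weights, and each mouse left out, and the terms for CpG slope and for depth were added after seeing the data.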

Additional observations from a re-analysis of the deposited data

Results flagged for a closer look

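Each named window and 4 measures of the whole library were checked for a mouse that stood apart from the rest of its group, by the gap to the nearest mouse over the range of the group (Dixon's ratio), and 5 of 87 groups were past the critical value, where chance gives about 1 in 20. Near Ccr1 on chromosome 9, B6 replicate 3 had 2.02 log2 RPKM and the other B6 mice 2.94 to 3.20 (ratio 0.776). At the start of Gm21887 on the X chromosome, B6 replicate 4 had 7.98 and the others 6.91 to 7.11 (ratio 0.814). At Gm11127 on chromosome 17, B6 replicate 4 had 5.04 and the others 4.76 to 4.84 (ratio 0.729), and D2 replicate 6 had 1.89 and the others 2.72 to 3.03 (ratio 0.723). At chr10:3114451, where D2 mice had no reads, B6 replicate 1 had 7.94 and the others 7.24 to 7.40 (ratio 0.766). In all 5 the strains remained apart by more than these gaps.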

How the results depend on the processing

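The number of windows called for strain in control mice was 51241 to 56289 with each mouse left out. It was 32159 in females alone (2 B6 and 3 D2 mice), and in the other 18 alternatives it stayed within 1.5 times of 55939, up to 60357 with quantile normalization. In CORT + DFP mice it was 51843 to 55358 with each mouse left out. Between the D2 sets 0 windows were called also without sex in the model (21697 at an unadjusted p under 0.05).

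The share of calls lower in D2, 58.4% in the main model, was 58.3% to 60.5% with each mouse left out, 61.1% with age, 60.6% with D2 mice of set 3, 60.8% with D2 mice of set 1, 69.9% in females, 61.0% in males, 68.5% within set 1, 55.2% with more than 3 reads in each strain, 53.7% centred on the median, 50.8% with quantile normalization, 61.1% unmoderated, and 62.6% with the CpG slope. The balance of lower over higher calls was thus small under quantile normalization. The number of tracts was 6966 to 7767 with each mouse left out, 4219 in females, and 4795 within set 1.

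The share higher at 1 to 2 CpGs (22.9%) was 19.5% to 23.5% with each mouse left out, 16.9% with age, 18.3% with D2 mice of set 3, 9.5% in females, 13.3% within set 1, 31.0% with quantile normalization, 18.1% unmoderated, and 10.2% with the CpG slope. The share lower at 9 CpGs or more (23.3%) was 21.7% to 23.8%, 19.8% with age, 21.1% with D2 mice of set 3, 15.9% in females, 18.5% within set 1, and 16.3% with the CpG slope. The share of X windows higher in D2 ranged from 5.74% in females to 33.0% with quantile normalization. Blocks with more than 50% of windows called were 104 in females, 154 within set 1, and 160 with the CpG slope, against 287, and blocks with under 5% called were 727, 463, and 203 in females, within set 1, and in the main model, and 90 with quantile normalization. Higher calls were 9694 in females and 12648 within set 1. The cause of these shifts was not tested.

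The 29 windows named for size, starts, or absent D2 reads kept their call and direction in each of the up to 30 alternatives that held them. Windows on the X chromosome were not in the autosomes alone, and those without D2 reads were not among windows with more than 3 reads in each strain. Of the windows named from gene lists, 8 lost the call in at least 1, most often Tet3 (20 of 30), Aldh1l1 (18), Cx3cr1 (17), and Dnmt1 (15). Within set 1, Fscn2 differed by 0.27 and Cx3cr1 by 0.34, against the direction in the control mice. No paired analysis was possible because the replicate numbers only name the mice.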
